A study of Mus musculus with 16 samples.

Results

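Expression of 7 genes for defence proteins of neutrophils was followed in bulk RNA-seq of mouse knee joint cells before and after injury. The genes were taken by symbol from the 13733 genes of the table: the alarmins S100a8 and S100a9, and the secondary granule genes Ltf, Camp, Ngp, Lcn2 and Mmp8. All 7 were listed, and all 7 passed the filter on low values that left 13173 genes for testing.

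The series compared wildtype C57BL/6 mice (WT) with whole-body Trem2 knockout mice (Trem2-/-) in uninjured joints (D0) and in joints taken 7 days after a tibial compression injury (D7). Each group (Trem2-/- D7, Trem2-/- D0, WT D7, WT D0) had 4 mice, and the question was what loss of Trem2, a macrophage surface receptor, changes in the injured joint. The study's methods give male mice injured at 10 weeks of age, cells released from the opened joint by collagenase with lysis of red blood cells, and a preparation meant to keep out bone marrow cells. The labels instead give an age of 16 weeks and an extraction protocol that speaks of homogenized joints and of control and T1DM mice; which of these holds for the libraries was not settled here. Whether immune cells were enriched before bulk sequencing is not given in the sources used here. The knockout is present in every cell of the animal, so no value below belongs to macrophages alone.

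S100A8 and S100A9 are small calcium-binding proteins that pair as calprotectin, fill the cytosol of neutrophils and, once released from damaged or activated cells, act as danger signals on Toll-like receptor 4 and on the receptor for advanced glycation end products. Secondary granules are loaded later in neutrophil maturation than the primary granules that carry myeloperoxidase and elastase, and their proteins starve microbes of iron, break their membranes or cut collagen. Messenger RNA of granule proteins is made mainly in maturing cells of the marrow, under factors such as C/EBP-epsilon and Gfi1, and the protein is then carried by the finished cell.

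Libraries held 11567073 to 32867818 reads in the listed genes. The 7 genes had between 1884 and 259298 reads each in every library, so that even the fewest reads, for Mmp8, gave a counting error of 2.30%, far under the spread between mice. Values are in CPM, read counts divided by the library's size after TMM adjustment, and a CPM says nothing of how many cells were in a joint. Trem2 itself stood at 16.8 ± 5.08 CPM (SD, n = 4) in WT D7 and 4.27 ± 0.644 CPM in Trem2-/- D7 without overlap, and at 4.56 ± 1.40 and 1.80 ± 0.713 CPM in WT D0 and Trem2-/- D0 with overlapping ranges. Markers of the other cells a joint preparation can hold were present in every group. The sum of 6 fibroblast markers ran from 9102 to 41585 CPM in WT D0 and from 64073 to 88919 CPM in WT D7. In the Trem2-/- joints it was 7272 to 15978 CPM at D0 and 81120 to 114440 CPM at D7.

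Several of the 7 genes are neighbours in the genome. S100a8 (chr3:90668978-90670035, plus strand) and S100a9 (chr3:90692632-90695721, minus strand) are 22596 bases apart. Camp (chr9:109847379-109849617, minus strand), Ngp (chr9:110419747-110423012, plus strand) and Ltf (chr9:111019271-111042767, plus strand) follow each other on chromosome 9 with gaps of 570129 and 596258 bases. Mmp8 is on the same chromosome at chr9:7558456-7568485 (plus strand), and Lcn2 is at chr2:32384633-32388252 (minus strand). All coordinates are those of GENCODE genes on GRCm38, the build the submitters' processing notes name.

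The stretches just upstream of the start sites are shown as a description of sequence. Their part in the levels of the 7 genes was not tested. They were read from RefSeq promoters on GRCm38.p6, 5′ to 3′ on the strand of the gene, with bases in annotated exons left out, and 4 of the 7 are given. Each of these 4 holds TTGCNNAA in the bases shown, so they do not stand for all 7. The stretches of S100a8 (157 bases) and Camp (89 bases) hold no TTGCNNAA and are not printed, and for Lcn2 no bases were left. Capitals mark TTGCNNAA, a core of the type bound by C/EBP factors, and GAGGAA, a core of the type bound by PU.1, on either strand, so that TTCCTC is GAGGAA read from the other strand.
S100a9, chr3:90695722-90695971, minus strand: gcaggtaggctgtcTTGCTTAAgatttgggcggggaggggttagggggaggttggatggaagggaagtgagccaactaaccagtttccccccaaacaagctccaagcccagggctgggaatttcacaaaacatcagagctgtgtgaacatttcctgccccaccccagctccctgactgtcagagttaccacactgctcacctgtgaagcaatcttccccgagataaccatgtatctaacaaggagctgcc
Ltf, chr9:111019042-111019270, plus strand: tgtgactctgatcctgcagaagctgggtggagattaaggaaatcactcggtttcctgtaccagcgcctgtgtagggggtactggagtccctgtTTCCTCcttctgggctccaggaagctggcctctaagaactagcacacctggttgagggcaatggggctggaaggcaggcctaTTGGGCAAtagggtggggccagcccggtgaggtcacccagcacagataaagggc
Ngp, chr9:110419558-110419746, plus strand: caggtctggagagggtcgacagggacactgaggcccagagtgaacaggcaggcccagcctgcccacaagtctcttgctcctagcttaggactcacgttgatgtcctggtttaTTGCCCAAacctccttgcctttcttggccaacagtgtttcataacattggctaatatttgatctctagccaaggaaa
Mmp8, chr9:7558179-7558428, plus strand: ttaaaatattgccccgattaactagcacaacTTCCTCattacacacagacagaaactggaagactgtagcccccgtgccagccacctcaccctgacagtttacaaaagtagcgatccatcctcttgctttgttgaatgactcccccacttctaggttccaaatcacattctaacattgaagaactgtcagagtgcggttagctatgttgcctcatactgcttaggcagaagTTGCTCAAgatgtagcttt

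Within the full 250 bases before the start, TTGCNNAA was found upstream of 5 of the 7 genes (S100a9, Ltf, Ngp, Lcn2 and Mmp8), compared with 9.56% of all 32851 RefSeq promoters. The match was 236 bases before the start in S100a9, 75 in Ltf, 138 and 11 in Ngp, 216 in Lcn2 and 19 in Mmp8, counted from the RefSeq start; the second match of Ngp and that of Lcn2 lie in annotated exons and are not shown. GAGGAA was found upstream of S100a8, Ltf, Lcn2 and Mmp8, compared with 23.3% of all promoters. TATAAA was found in S100a8 alone, 30 bases before the start, against 12.4%, and GGANTTTCC, of the NF-kB type, in 0 of the 7 against 1.07%. Camp held none of the 4 motifs in its window. Matches did not overlap each other, and a match is a description of letters and not a measured binding site.

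In WT joints all 7 genes fell from D0 to D7. The falls ranged from 2.52-fold for Mmp8 to 3.99-fold for Camp, and the median log2 fold change of the 7 was -1.52, compared with -0.04 over all 13173 genes. By size of fall the 7 genes took places 9 to 102 among all genes tested. All 7 met the study's rule for a change (unadjusted p under 0.05 and a change of more than 25% of the lower level), which 18.2% of all genes met in the same direction and 19.3% in the opposite one. With Benjamini-Hochberg adjustment in limma, 7 of 7 had an adjusted p under 0.05 (0.00862 to 0.0312), against 12.6% of all genes that were lower at this threshold. The count of adjusted calls rested on single mice: it was 1 without WT D0 replicate 3 or WT D7 replicate 1, and 2 without WT D0 replicate 2 or WT D7 replicate 4, and it was 4 when the WT libraries were fitted alone. The count by the study's rule was 7 in each of these cases. In such bulk samples fewer neutrophils, less of this RNA per neutrophil and more RNA of other cells cannot be told apart. The study's single-cell data, from enriched immune cells, gave an elevated proportion of neutrophils by D7. They also gave Mmp8 as raised in neutrophils after injury. That proportion is taken among immune cells and the CPM here over all reads, and they were not compared by a test.

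In Trem2-/- joints the same 7 genes fell from D0 to D7, by between 4.35-fold (S100a8) and 5.50-fold (Ltf). The median log2 fold change was -2.33, compared with -0.04 over all genes, and the 7 genes took places 11 to 89 by size of fall. Again 7 of 7 met the study's rule, which 27.9% of all genes met as a fall and 26.5% as a rise. Adjusted p-values in limma were 0.000272 to 0.000787, with 27.2% of all genes lower at an adjusted p under 0.05. All 7 genes were separated between D0 and D7 in Trem2-/- mice, each D7 mouse lying under each D0 mouse, as were 26.3% of all genes. In WT mice 3 of the 7 were separated in this way (Ltf, Camp and Ngp), against 9.34% of all genes.

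**Figure D1:**
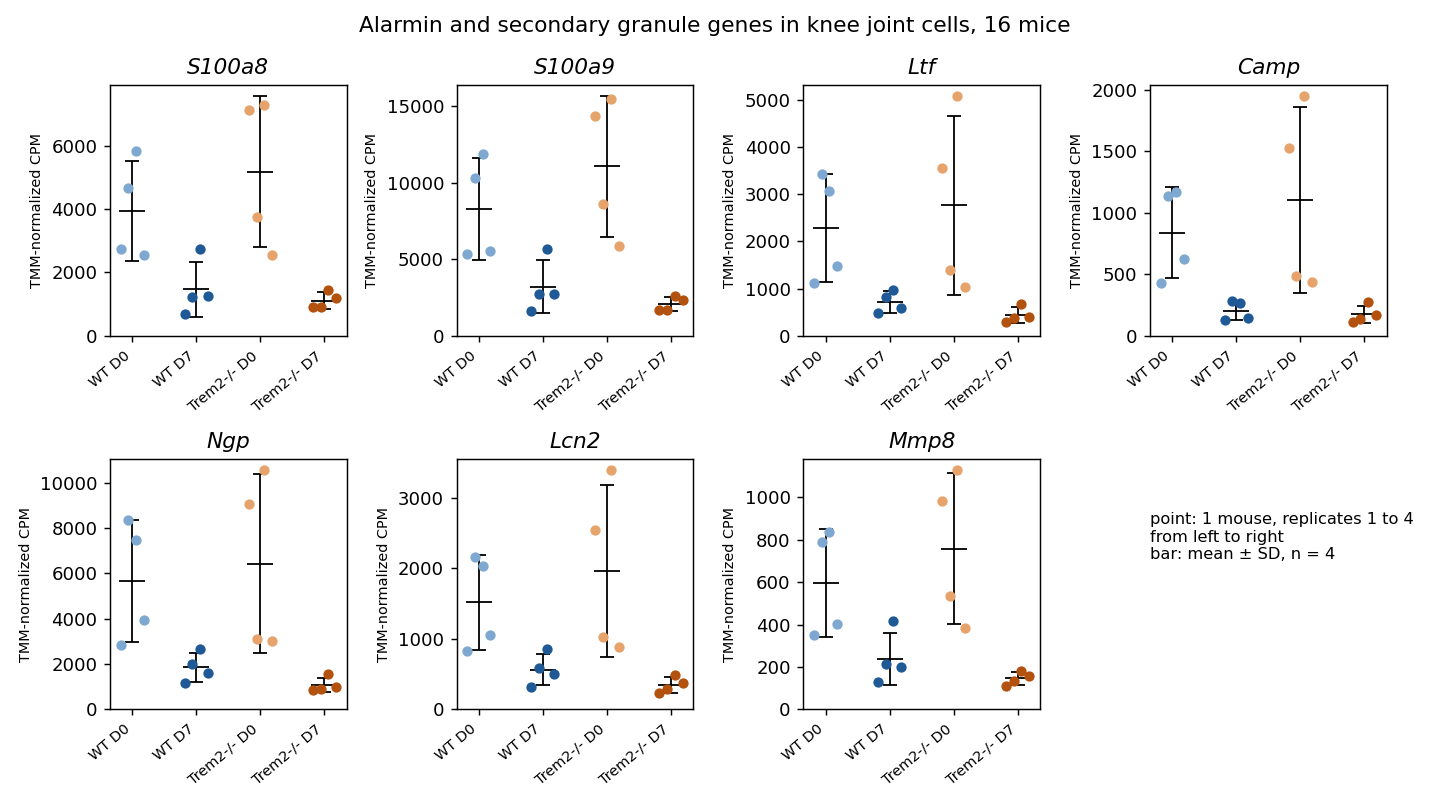
TMM-normalized CPM (y axes, linear from 0) of each gene in the 4 groups; a point is 1 mouse, and bars are mean ± SD of 4 mice. D7 points lie low in both genotypes, and for S100a9 the Trem2-/- D7 mice reach at most 2596 CPM while the lowest D0 mouse of either genotype has 5347 CPM.

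S100a9 had the highest mean CPM of the 13733 listed genes at D0 in both genotypes, a ranking that does not take gene length into account. Levels were 5347, 10275, 11870 and 5517 CPM in WT D0 replicates 1 to 4, and 1642, 2738, 5666 and 2751 CPM in WT D7. The highest D7 mouse, replicate 3, lay among the D0 mice, and the other three D7 mice lay under every D0 mouse. The mean fell from 8252 ± 3322 to 3199 ± 1725 CPM (SD, n = 4), and the fitted level on the log2(CPM + 1) scale was 2.68-fold lower (95% confidence interval 1.44 to 4.98), with a limma adjusted p of 0.0222. In Trem2-/- joints the levels were 14352, 8602, 15465 and 5847 CPM at D0 and 1668, 1699.7, 2596 and 2346 CPM at D7. These groups did not overlap, and the fitted D7 level was 5.04-fold lower (95% confidence interval 2.71 to 9.38), with a limma adjusted p of 0.000360. Even after this fall S100a9 was in place 24 of all genes in WT D7 and 35 in Trem2-/- D7.

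S100a8 encodes the partner of S100a9 and moved in step with it. It stood at 2730.4, 4668, 5844 and 2559 CPM in WT D0 and at 690.0, 1209, 2727 and 1251 CPM in WT D7. As for S100a9, WT D7 replicate 3 was the single injured WT mouse within the D0 range. The D7 level was 2.86-fold lower (95% confidence interval 1.53 to 5.36), with a limma adjusted p of 0.0174. In the Trem2-/- mice S100a8 was 7142, 3745, 7285 and 2564 CPM at D0 and 897, 905, 1454 and 1183 CPM at D7, without overlap. The fitted D7 level there was 4.35-fold lower (95% confidence interval 2.32 to 8.14, limma adjusted p = 0.000787). S100a9 exceeded S100a8 by a narrow ratio of CPM within each mouse: 2.09 ± 0.11 in WT D0, 2.23 ± 0.13 in WT D7, 2.18 ± 0.14 in Trem2-/- D0 and 1.88 ± 0.08 in Trem2-/- D7 (SD, n = 4). The ratios of the Trem2-/- D7 mice (1.79 to 1.98) lay under all those of WT D7 (2.08 to 2.38) and Trem2-/- D0 (2.01 to 2.30). They overlapped those of WT D0 (1.96 to 2.20). This difference was not tested.

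Ltf encodes lactoferrin, which binds iron. The WT D0 mice had 1113, 3428, 3075 and 1488 CPM and the WT D7 mice 479.5, 823, 979 and 588 CPM. No injured WT mouse reached the lowest uninjured one. The fall was to a level 2.96-fold lower (95% confidence interval 1.45 to 6.03), with a limma adjusted p of 0.0266. Trem2-/- mice ran from 3552, 1402, 5072 and 1041 CPM at D0 to 284, 372, 680.4 and 396 CPM at D7, the widest spread among uninjured mice of any of the 7 genes relative to the lowest mouse (4.87-fold). At D7 Ltf was 5.50-fold lower (95% confidence interval 2.70 to 11.2) in these mice (limma adjusted p = 0.000675).

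Camp encodes the cathelicidin precursor, from which a membrane-breaking peptide is cut. Its levels were 431, 1132, 1168 and 623 CPM in WT D0 and 132, 279, 263 and 142 CPM in WT D7, again without overlap. Camp had the steepest fall of the 7 in WT joints, 3.99-fold lower (95% confidence interval 1.96 to 8.15) at D7, with a limma adjusted p of 0.00862. In Trem2-/- joints it went from 1528, 486, 1946 and 439 CPM to 111, 138, 276 and 169 CPM. This was 5.42-fold lower (95% confidence interval 2.66 to 11.1, limma adjusted p = 0.000719). By group mean Camp dropped from place 100 of all genes in WT D0 to 895 in WT D7, and from 65 to 1088 in Trem2-/- mice.

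Ngp encodes neutrophilic granule protein, a member of the cystatin and cathelicidin family. At D0 it stood at 2854, 8353, 7488 and 3954 CPM in WT and 9059, 3090.1, 10562 and 3016 CPM in Trem2-/- mice. At D7 it stood at 1150.3, 2022, 2649 and 1608 CPM in WT and 838, 918, 1543 and 1010.5 CPM in Trem2-/- mice. Both injured groups lay under both uninjured groups. The D7 level was 2.90-fold lower (95% confidence interval 1.48 to 5.70) in WT mice (limma adjusted p = 0.0224). In Trem2-/- mice it was 5.22-fold lower (95% confidence interval 2.66 to 10.2, limma adjusted p = 0.000559).

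Lcn2 encodes lipocalin 2, which captures bacterial iron carriers and is also made by stressed epithelial and mesenchymal cells. WT D0 mice had 824, 2156, 2026 and 1061 CPM and WT D7 mice 316, 580.4, 856 and 508 CPM. WT D7 replicate 3 lay just above the lowest D0 mouse, so that the groups overlapped by that pair. The D7 level was 2.63-fold lower (95% confidence interval 1.36 to 5.08), with the weakest limma adjusted p of the 7 in WT mice, 0.0312. In Trem2-/- joints Lcn2 was 2546, 1023, 3392 and 885 CPM at D0 and 228, 285, 485 and 379 CPM at D7. Those groups were apart, with D7 5.05-fold lower (95% confidence interval 2.61 to 9.76, limma adjusted p = 0.000556).

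Mmp8 encodes the neutrophil collagenase, which cuts fibrillar collagens such as that of cartilage. It stood at 353, 792, 839 and 404 CPM in WT D0 and 131, 212, 416 and 199 CPM in WT D7. WT D7 replicate 3 was within the range of the uninjured mice and the other injured WT mice were under it. The D7 level was 2.52-fold lower (95% confidence interval 1.42 to 4.49) in WT mice (limma adjusted p = 0.0211). Trem2-/- mice had 982, 533, 1131 and 385 CPM at D0 and 111, 134, 184 and 158 CPM at D7, a level 4.77-fold lower (95% confidence interval 2.68 to 8.49). Its limma adjusted p of 0.000272 was the smallest of the 7 in Trem2-/- mice.

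Together the 7 genes held 2.60% of all reads in WT D0 (1.45% to 3.73% among the 4 mice) and 0.746% in WT D7 (0.435% to 1.22%). In Trem2-/- joints they held 3.23% at D0 (1.59% to 4.98%) and 0.481% at D7 (0.375% to 0.618%). Relative to the mean, the SD was smallest in Trem2-/- D7 for S100a8, S100a9, Ngp, Lcn2 and Mmp8 (21.3% to 32.7% of the mean), and in WT D7 for Ltf and Camp.

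At D7 none of the 7 genes passed between the genotypes. Means of all 7 were under those of WT joints, with log2 fold changes of -0.76 for Ngp, -0.75 for Ltf, -0.68 for Lcn2, -0.60 for Mmp8, -0.51 for S100a9, -0.26 for S100a8 and -0.23 for Camp. The groups overlapped for all 7. The study's rule called 0 of 7, against 4.53% of all genes lower and 1.18% higher in Trem2-/- joints, and limma adjusted p-values of the 7 were 0.767 to 0.944. The confidence intervals were wide, -1.73 to 0.21 for Ngp and -1.26 to 0.80 for Camp, so neither equal levels nor a fall of more than 2-fold was settled by 4 mice per group. When the D7 libraries were fitted alone, Ngp, Ltf and Lcn2 met the study's rule (limma adjusted p = 0.232, 0.259 and 0.315). Without WT D7 replicate 3 the S100a8 difference changed sign, to 0.10, the median of the 7 genes went from -0.60 to -0.29, and the rule called 3.64% of all genes in either direction, against 5.72% with all mice. Over all genes at D7, limma gave 0 genes with an adjusted p under 0.05 and 958 with an unadjusted p under 0.05.

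At D0 the means of all 7 genes were higher in Trem2-/- than in WT joints, and none passed. The log2 fold changes ran from 0.08 for Ngp to 0.41 for S100a9, with a limma adjusted p of 0.9996 for each. The study's rule called 0 of 7, against 0.782% of all genes higher and 1.37% lower. Leaving out 1 mouse turned the direction of Ltf, Camp and Ngp (without Trem2-/- D0 replicate 1 or 3 or WT D0 replicate 1) and of Ltf and Ngp (without WT D0 replicate 4), and of Lcn2 without Trem2-/- D0 replicate 3. The share of all genes called at D0 was 2.15% in either direction with all mice, and by mouse left out it was 3.35%, 9.34%, 3.36% and 0.812% for replicates 1 to 4 of WT D0 and 4.11% for replicate 4 of Trem2-/- D0. Markers of other cells differed beside the 7 genes: by the study's rule 1 of 6 fibroblast markers (Col1a1, log2 fold change -1.27), 2 of 5 chondrocyte markers (Col2a1, -2.06, and Matn3, -2.39) and 2 of 6 markers of B cells and their precursors were lower in Trem2-/- joints at D0, each with a limma adjusted p of 0.9996. Their part in the D0 values of the 7 genes was not tested. Over all genes at D0, limma gave 0 genes with an adjusted p under 0.05 and 385 with an unadjusted p under 0.05.

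The order of the group means was the same for all 7 genes: Trem2-/- D0 was highest, then WT D0, WT D7 and Trem2-/- D7. Neighbours in this order within D0 and within D7 did not pass the test, while D7 vs D0 met the study's rule in each genotype, with ranges that overlapped in WT mice for S100a8, S100a9, Lcn2 and Mmp8. The interaction term, the difference between the injury effects of the genotypes, was negative for all 7 genes and passed for 0, against 5.02% of all genes called with a negative and 2.77% with a positive interaction. It was -0.94 (SE 0.63) for Lcn2, -0.92 (SE 0.55) for Mmp8, -0.91 (SE 0.60) for S100a9 and -0.44 (SE 0.68) for Camp on the log2 scale, with limma adjusted p-values of 0.675 to 0.886 over the 7. Without Trem2-/- D0 replicate 4, Mmp8 met the study's rule (limma adjusted p = 0.447). The median interaction of the 7 genes was -0.90, and it was -0.53 without Trem2-/- D0 replicate 3, where the single genes reached from -0.72 to -0.067. Dropping replicate 1 of WT D0 gave a median of -0.60, and dropping replicate 3 of WT D7 gave -0.61. Over all genes the rule called 7.79% of interactions, 64.4% of them negative, and without WT D0 replicate 2 it called 17.0%, 47.8% of them negative. It called 4.62% once replicate 4 of WT D0 was left out and 5.03% once replicate 3 of WT D7 was. Over all genes, 0 interactions had a limma adjusted p under 0.05 and 1075 an unadjusted p under 0.05. A larger injury effect in Trem2-/- mice was thus not shown for any of the 7. The contrasts of injury and of genotype share their mice, and their values are set side by side without a test of likeness.

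**Figure D2:**
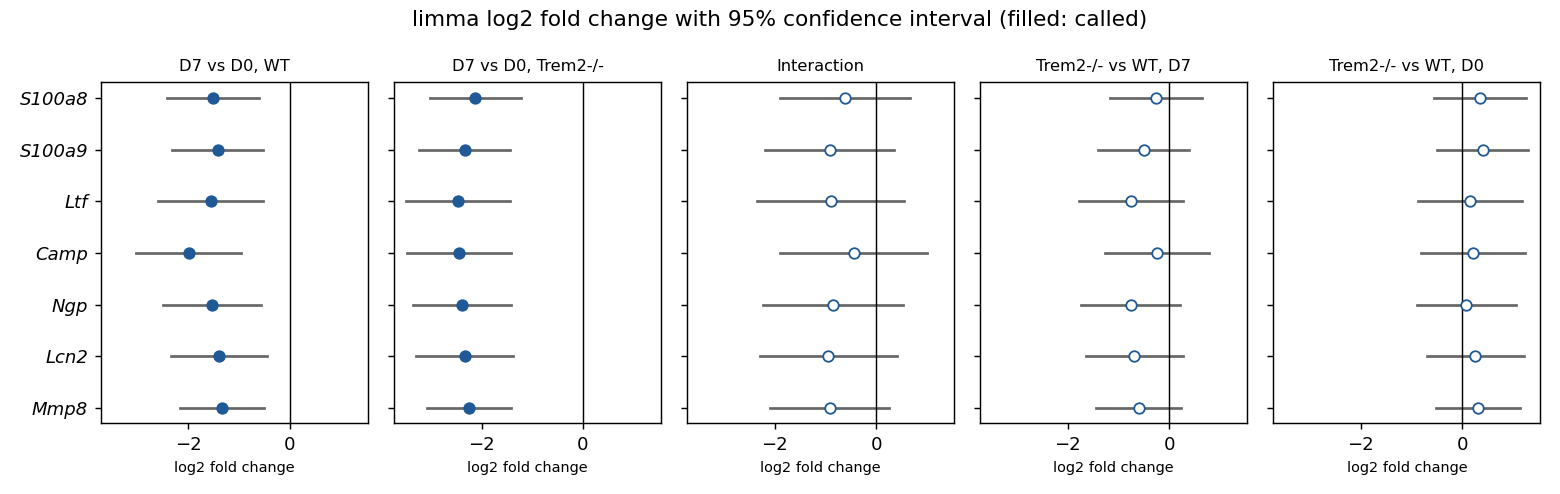
limma log2 fold change (x axes) of the 7 genes in 5 contrasts; points are estimates, lines their 95% confidence intervals, and filled points met the study's rule. All D7 vs D0 intervals lie under 0 in both genotypes, and all intervals of the interaction and of Trem2-/- vs WT cross 0.

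Between genes, levels were compared per kilobase of annotated exon. In WT D0 joints the mean CPM per exon kilobase was 15809 for S100a9, 5692 for S100a8, 4634 for Ngp, 1106 for Camp, 659.7 for Ltf, 578 for Lcn2 and 246 for Mmp8. S100a9 was above S100a8 in 16 of 16 libraries, S100a8 above Ngp in 15, Ngp above Camp in 16, Camp above Ltf in 16 and Lcn2 above Mmp8 in 16. Ltf and Lcn2 changed places between libraries, with Ltf higher in 10 of 16. Exon lengths are the union over all annotated transcripts of a gene, which can be longer than any one transcript and then lowers the level per kilobase.

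The 7 genes varied together from mouse to mouse. Over the 16 libraries Pearson's r of log2(CPM + 1) for the 21 pairs ran from 0.952 to 0.996 (median 0.978), and after removing group means it still ran from 0.836 to 0.995 (median 0.941). These correlations describe genes that share libraries and the D0 to D7 step. In Trem2-/- D0 and in Trem2-/- D7 joints replicate 3 had the highest level of all 7 genes. In WT D7 joints replicate 3 was highest for 6 of the 7 and replicate 1 was lowest for all 7, with Camp alone highest in replicate 2. Fibroblast signal also differed between uninjured mice: in WT D0 the fibroblast marker sum was 21366 and 41585 CPM in replicates 1 and 4 and 9832 and 9102 CPM in replicates 2 and 3. In Trem2-/- D0 it was 9955, 8858, 7272 and 15978 CPM in replicates 1 to 4. There replicate 4 was the lowest mouse for all 7 genes, and replicate 2 had less of all 7 than replicate 1. At D7 the sum was 72230, 88919, 64073 and 87757 CPM in WT replicates 1 to 4. In Trem2-/- D7 it was 109410, 97852, 114440 and 81120 CPM, so replicate 3 was highest there for the sum and for all 7 genes. The part of this difference in cell makeup in the levels of the 7 genes was not tested.

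**Figure D3:**
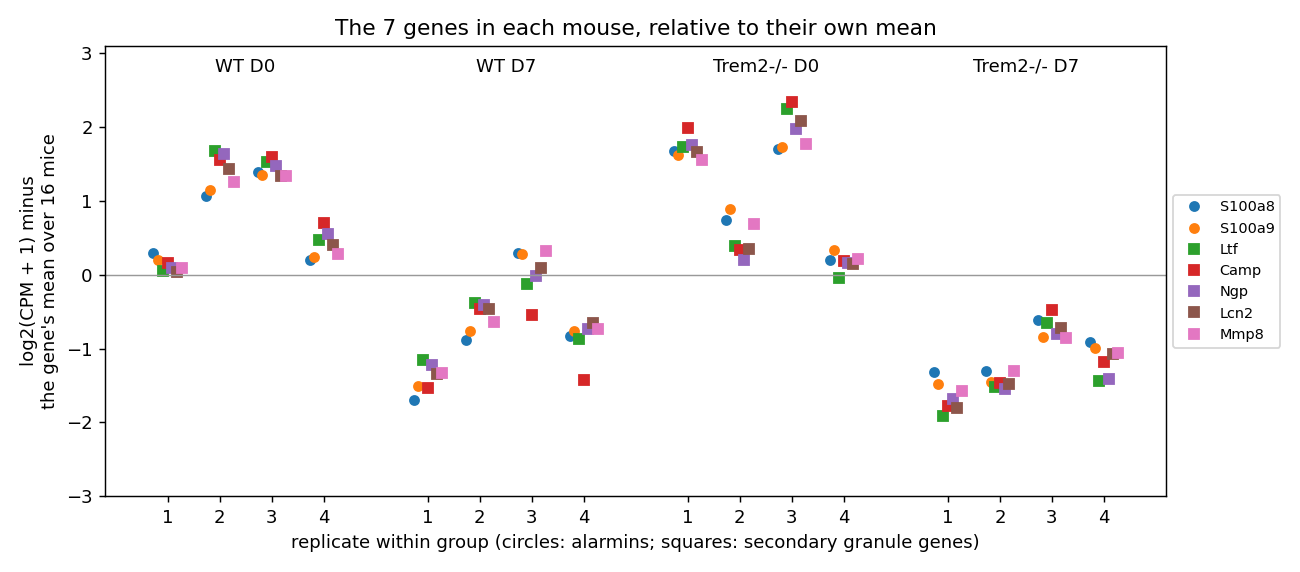
log2(CPM + 1) of each gene minus that gene's own mean over 16 mice (y axis) for replicates 1 to 4 of each group (x axis); 1 point is 1 gene in 1 mouse. The points of a mouse lie close together, those of Trem2-/- D0 replicate 3 highest and those of the D7 mice mostly under 0.

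Within this common movement the secondary granule genes and the alarmins were not in a fixed ratio. The summed CPM of the 5 granule genes over that of the 2 alarmins ran from 0.690 to 1.06 in WT D0, from 0.615 to 0.992 in WT D7, from 0.529 to 0.972 in Trem2-/- D0 and from 0.599 to 0.782 in Trem2-/- D7, overlapping in all 4 groups. Mice with a high ratio also had more primary granule RNA per mature neutrophil RNA. The summed CPM of 8 primary granule genes over 13 mature neutrophil genes was 0.0837 in WT D7 replicate 3, where the granule to alarmin ratio was 0.615, and 0.347 in WT D7 replicate 1, where it was 0.947. It was 0.593 in Trem2-/- D0 replicate 3, where the granule to alarmin ratio was 0.972, and 0.110 in Trem2-/- D0 replicate 2, where it was 0.529. Over 16 mice Pearson's r of the 2 log2 ratios was 0.764 and Spearman's rho 0.788, r was 0.851 without the 2 mice farthest from the median on the x axis, and 0.907 after removing group means; these ratios were chosen after the values were seen and are a description. WT D7 replicate 3, the injured WT mouse with the most S100a8 and S100a9 RNA, thus had mature neutrophil genes at 5745 CPM in sum and primary granule genes at 481 CPM, while WT D7 replicate 1 had 1645 and 572 CPM.

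**Figure D4:**
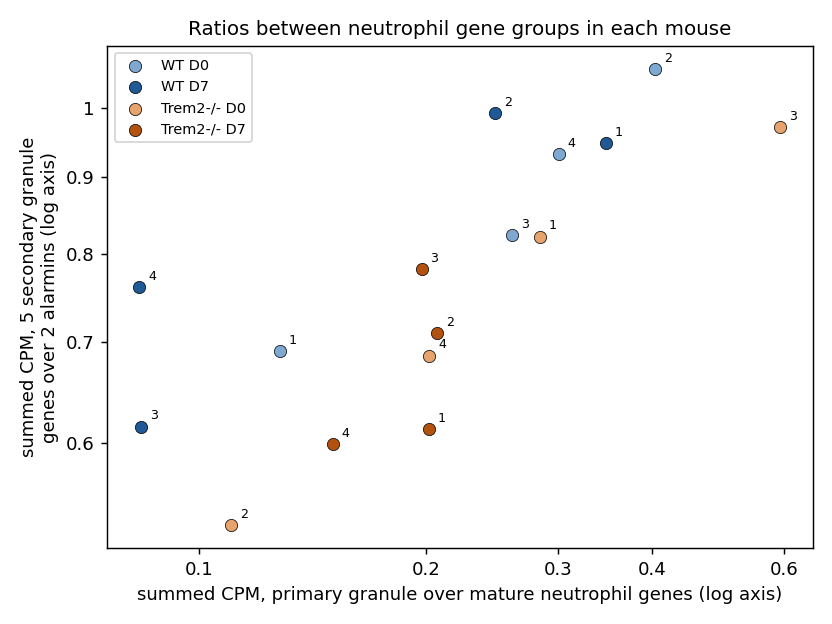
Summed CPM of the 5 secondary granule genes over the 2 alarmins (y axis, log) against summed CPM of 8 primary granule genes over 13 mature neutrophil genes (x axis, log); a point is 1 mouse, numbered by replicate and coloured by group. Ratios rise together, from Trem2-/- D0 replicate 2 at 0.110 and 0.529 to Trem2-/- D0 replicate 3 at 0.593 and 0.972.

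Genes outside the 7 whose levels followed them most closely were sought among 10545 tested genes whose mean was 5 CPM or more. Closest to the mean of the 7 over 16 libraries were Cd177, a neutrophil surface glycoprotein (r = 0.997), Wfdc21 (r = 0.994) and Pglyrp1, a granule peptidoglycan recognition protein (r = 0.992). Arhgdib, Ifitm6, Acpp, Mapk13, Pilrb2, Cyba and Ltb4r1 followed. For single genes the closest were Wfdc21, Prdx5 and Mmp25 for S100a8, Trem3, Cfp and Mmp25 for S100a9, and Itgb2l, Cd177 and Gm4763 for Ltf. They were Ltb4r1, Mgst2 and Chil3 for Camp, and Acpp, Cd177 and Arhgdib for Ngp. Lcn2 was followed by Cd177, Acpp and Ifitm6, and Mmp8 by Mmp25, Trem3 and Mapk13. Cd177 fell from a mean of 502 to 166 CPM in WT and from 619 to 103 CPM in Trem2-/- joints.

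The other secondary and tertiary granule genes fell too. By the study's rule 9 of the 10 measured were lower at D7 in WT joints (7 with an adjusted p under 0.05) and 9 of 10 in Trem2-/- joints (9), with median log2 fold changes of -1.24 and -2.07 against -0.04 over all genes. The rule called 18.2% of all genes lower in WT and 27.9% in Trem2-/- joints. Chil3, a chitinase-like protein, fell, with log2 fold changes of -1.83 and -2.76 in WT and Trem2-/- joints (limma adjusted p = 0.0191 and 0.000514). Pglyrp1 fell, with log2 fold changes of -1.39 and -2.45 (limma adjusted p = 0.0191 and 0.000158). The exception, Ptx3, named after its values were seen, had 0.62 and 1.00 and did not pass. Olfm4 and Adam8 met the rule as lower in Trem2-/- than in WT at D7, with log2 fold changes of -0.9998 and -0.68 (limma adjusted p = 0.587 and 0.622). Lyz2 and Itgam were not analysed here.

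Primary granule genes, made by the earliest precursors, fell as well. Of 8 measured, 7 were lower at D7 in each genotype, all with an adjusted p under 0.05, with medians of -1.86 in WT and -2.53 in Trem2-/- joints. At that threshold 12.6% of all genes were lower in WT and 27.2% in Trem2-/- joints. Elane, neutrophil elastase, fell, with log2 fold changes of -1.99 and -2.62 (limma adjusted p = 0.0098 and 0.000485). Prtn3, proteinase 3, fell likewise, with -1.96 and -2.59 (limma adjusted p = 0.00899 and 0.000431). The exception was Ctsc (0.07 and -0.18), a protease of many cell types, named after its values were seen. None of the 8 passed between the genotypes at D7, against 4.53% of all genes lower and 1.18% higher by the study's rule.

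Genes of mature neutrophils outside the granules fell in 10 of 13 in WT and 13 of 13 in Trem2-/- joints, all of these also with an adjusted p under 0.05, with medians of -1.03 and -2.05. Over all genes 18.2% fell by the study's rule in WT and 27.9% in Trem2-/- joints. Ly6g, the surface marker of mouse neutrophils, fell, with log2 fold changes of -1.54 and -2.26 (limma adjusted p = 0.0154 and 0.000454). At D7 3 of the 13 met the rule as lower in Trem2-/- joints, against 4.53% of all genes. Among them were Csf3r, the receptor for granulocyte colony-stimulating factor (-0.74, limma adjusted p = 0.593), and Mxd1 (-0.65, limma adjusted p = 0.642). The interaction met the rule as negative for 5 of the 13, against 5.02% of all genes. Among them were Asprv1 (-1.29) and Csf3r (-1.19), each with a limma adjusted p of 0.579. Fpr2 and Stfa2l1 were not analysed here.

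Of 8 measured regulators of neutrophil maturation, 5 fell in WT and 5 fell and 1 rose in Trem2-/- joints, against 18.2% of all genes lower in WT and 27.9% lower in Trem2-/- joints. Cebpe, the C/EBP factor of secondary granule genes, fell, with log2 fold changes of -1.68 and -2.42 (limma adjusted p = 0.0166 and 0.000593). Gfi1 fell, with log2 fold changes of -1.46 and -2.22 (limma adjusted p = 0.00833 and 0.000133). Spi1, which encodes PU.1, fell, with log2 fold changes of -0.84 in WT and -1.78 in Trem2-/- joints (limma adjusted p = 0.0207 and 5.11e-05). Csf3, the cytokine that drives neutrophil production, met the rule as a fall in WT joints (-1.27, limma adjusted p = 0.0535) and as higher in Trem2-/- than in WT joints at D7 (1.13, limma adjusted p = 0.622). Spi1 met the rule as lower in Trem2-/- than in WT joints at D7 (-0.61, limma adjusted p = 0.615) and with a negative interaction (-0.94, limma adjusted p = 0.579). Cebpd was not analysed here.

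Of 11 measured receptors and binding partners of the secreted proteins, 1 fell and 2 rose in WT joints by the study's rule, against 18.2% of all genes lower and 19.3% higher. By the same rule 6 fell and 3 rose in Trem2-/- joints, against 27.9% lower and 26.5% higher. Mcam, a surface receptor that binds S100A8 and S100A9, rose, with log2 fold changes of 1.19 in WT and 1.24 in Trem2-/- joints (limma adjusted p = 0.00891 and 0.00231). Slc22a17, a lipocalin 2 receptor, rose by 1.35 on the log2 scale in Trem2-/- joints (limma adjusted p = 0.00332). Cd14, the co-receptor of Toll-like receptor 4, fell by 1.10 on the log2 scale there (limma adjusted p = 0.00844). Myd88, the adaptor below that receptor, fell, with log2 fold changes of -0.54 in WT and -0.75 in Trem2-/- joints (limma adjusted p = 0.00487 and 0.000124). None of the 11 passed between the genotypes at D7, against 4.53% of all genes lower and 1.18% higher by the study's rule. Lrp1 was not analysed here.

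Of 6 measured inhibitors of metalloproteinases such as Mmp8, 2 rose and 1 fell in each genotype by the study's rule. Over all genes 19.3% rose and 18.2% fell in WT joints, and 26.5% and 27.9% in Trem2-/- joints. Timp1 rose, with log2 fold changes of 2.21 in WT and 3.13 in Trem2-/- joints (limma adjusted p = 0.00537 and 0.000117), and Timp4 fell, with log2 fold changes of -2.08 and -2.54 (limma adjusted p = 0.00189 and 8.25e-05). Timp2 met the rule as a rise in both (0.79 and 1.72, limma adjusted p = 0.0634 and 0.000333). The other three of 6 did not pass.

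Most of the other S100 genes did not pass as lower at D7. Of 9 measured, 1 fell and 2 rose in WT joints and 1 fell and 4 rose in Trem2-/- joints by the study's rule, with medians of 0.11 in both. Over all genes 18.2% were lower and 19.3% higher in WT, and 27.9% and 26.5% in Trem2-/- joints. S100a4 rose, with log2 fold changes of 0.66 and 1.12 (limma adjusted p = 0.0138 and 0.000135). S100a11 met the rule as a fall (-0.52 and -0.85, limma adjusted p = 0.0779 and 0.00377). S100a5, S100g and S100z were not analysed here.

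**Figure D5:**
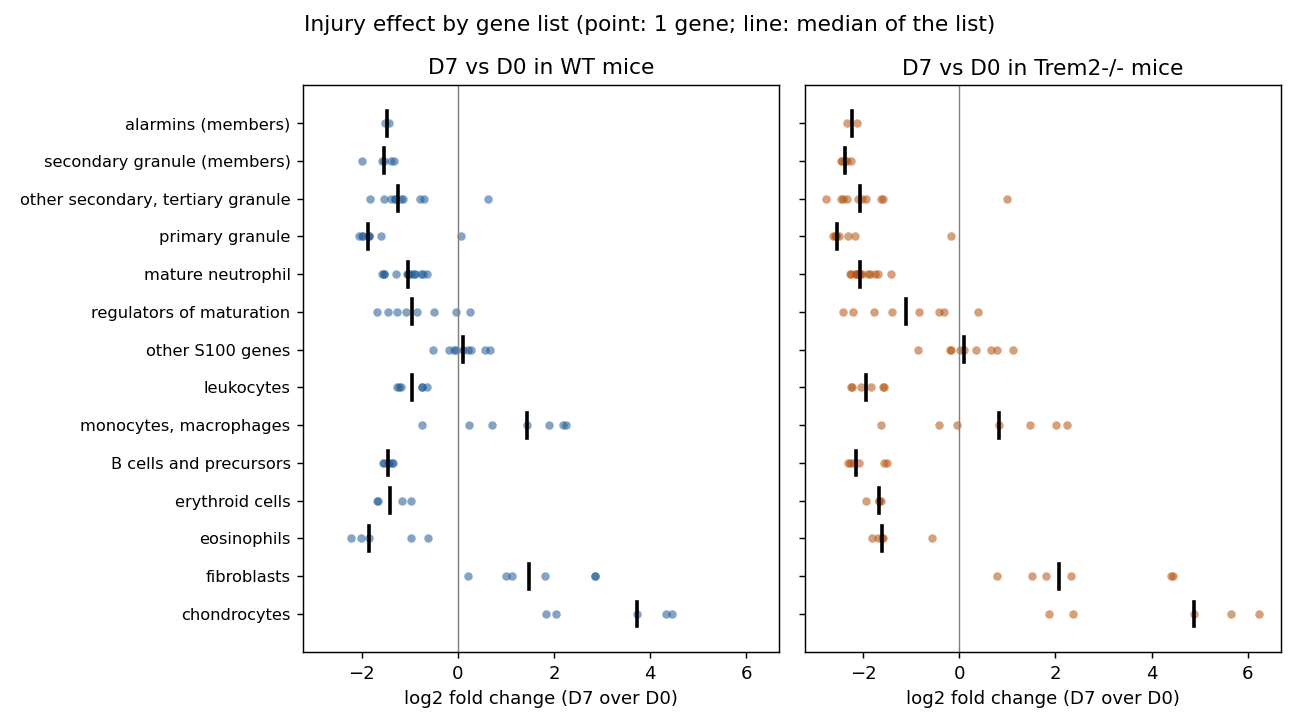
D7 vs D0 log2 fold change (x axes) of each gene of 14 lists (y axis) in WT and in Trem2-/- mice; a point is 1 gene and a line the median of the list. Medians of the granule and mature neutrophil lists lie between -1.03 and -1.86 in WT mice, where Ptx3 (0.62) and Ctsc (0.07) lie right of 0. Ptx3 does so in Trem2-/- mice as well (1.00). Other S100 genes lie around 0, and fibroblast and chondrocyte markers lie right of it.

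Markers of other cells moved at the same time. All 6 general leukocyte markers were lower at D7 in WT joints and all 6 in Trem2-/- joints by the study's rule (medians -0.96 and -1.94). Over all genes 18.2% were lower in WT and 27.9% in Trem2-/- joints. By the same rule 5 of the 6 were lower in Trem2-/- than in WT joints at D7, against 4.53% of all genes. Limma adjusted p-values of these 5 were 0.451 to 0.674. The summed level of the 6 leukocyte markers ran from 2093 to 4293 CPM in WT D0, 1214 to 2556 in WT D7, 2653 to 4602 in Trem2-/- D0 and 902 to 1132 in Trem2-/- D7. Relative to that sum, the 7 genes stood at 6.97 ± 0.88 in WT D0, 4.50 ± 0.73 in WT D7, 7.42 ± 2.53 in Trem2-/- D0 and 5.14 ± 0.89 in Trem2-/- D7 (SD, n = 4). This ratio did not overlap between D0 and D7 in WT mice and did in Trem2-/- mice. Among the leukocyte markers Ptprc, which encodes CD45, had -0.78 in Trem2-/- vs WT at D7 (limma adjusted p = 0.4996). All 6 markers of B cells and their precursors and 3 of 7 macrophage markers also met the rule as lower in Trem2-/- joints at D7, and 0 of 6 fibroblast markers did. Of these markers 0 had a limma adjusted p under 0.05 at D7. The part of these cells in the D7 differences of the 7 genes was not tested.

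Markers of B cells, erythroid cells and eosinophils, all of them cells also found in bone marrow, fell beside the 7 genes. By the study's rule 18.2% of all genes fell in WT and 27.9% in Trem2-/- joints. All 6 markers of B cells and their precursors fell in both genotypes (medians -1.44 and -2.15), and their sum ran from 119 to 331 CPM in WT D0 and from 45.1 to 94.8 CPM in WT D7. In Trem2-/- joints it ran from 138 to 215 CPM at D0 and from 27.6 to 40.7 CPM at D7. The study's single-cell data, from enriched immune cells of wildtype mice, gave an elevated proportion of B cells by D7. That share is among immune cells and the CPM here over all reads, and the 2 were not compared by a test. All 4 measured erythroid markers fell in both genotypes (medians -1.40 and -1.67), with sums of 1325 to 2135 CPM in WT D0, 393 to 1445 in WT D7, 868 to 2056 in Trem2-/- D0 and 316 to 792 in Trem2-/- D7. The 5 eosinophil markers met the rule as lower in both (medians -1.84 and -1.61). Their sums were 65.4 to 523 CPM in WT D0, 31.5 to 72.8 in WT D7, 62.2 to 420 in Trem2-/- D0 and 29.9 to 71.0 in Trem2-/- D7. None of the markers was at 0 in all mice of a group. Their part in the fall of the 7 genes was not tested.

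Macrophage markers went the opposite way or were mixed: 5 of 7 rose in WT joints, and 4 rose and 2 fell in Trem2-/- joints. By the study's rule 19.3% of all genes rose and 18.2% fell in WT joints, and 26.5% and 27.9% in Trem2-/- joints. The macrophage marker sums were 227 to 433 CPM in WT D0, 478 to 657 in WT D7, 310 to 399 in Trem2-/- D0 and 367 to 433 in Trem2-/- D7. C1qa, a complement gene of macrophages, rose, with log2 fold changes of 2.25 and 2.02 (limma adjusted p = 0.00127 and 0.000448). The markers that fell in Trem2-/- joints were Ccr2 (-1.63, limma adjusted p = 0.00146) and Cd68 (-0.42, limma adjusted p = 0.00782). In WT joints Ccr2 and Cd68 did not pass (-0.75 and 0.23). Fibroblast markers rose in 4 of 6 in WT and 5 of 6 in Trem2-/- joints, and all 5 chondrocyte markers rose in both (medians 3.74 and 4.88). The chondrocyte sum ran from 664 to 11913 CPM in WT D0, 27198 to 69499 in WT D7, 1000.1 to 3749.6 in Trem2-/- D0 and 25447 to 39245 in Trem2-/- D7. Of 5 skeletal muscle markers, 1 met the rule as lower at D7 in WT joints, against 18.2% of all genes. In Trem2-/- joints 5 did, against 27.9%. The muscle marker sums were 157 to 617 CPM in WT D0, 117 to 296 in WT D7, 277 to 788 in Trem2-/- D0 and 124 to 188 in Trem2-/- D7. The part of fibroblast and chondrocyte RNA in the values of the 7 genes was not tested. Ly6c2, Hbb-bs and Hbb-bt were not analysed here.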

How the data were processed

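Bulk RNA-seq of mouse knee joint cells gave 16 libraries, 4 in each group, assigned by genotype and injury state in the labels. The authors used STAR (mm10), featureCounts and the TMM method of edgeR; versions, annotation and strand setting are not given in the sources used here. The deposited signal values are TMM-normalized CPM. Whole reads were recovered for 100% of values (tolerance 0.01). 1 gene listed more than once was counted once. 3 reads equal 0.101 to 0.250 CPM, for counting error only.

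Values were compared as log2(CPM + 1) with limma 3.58.1 (lmFit, eBayes with trend; R 4.3.3) over the 13173 genes that reached 1 CPM in 4 or more libraries, with the 4 groups as one factor and Benjamini-Hochberg adjustment over all of them. The study's rule (unadjusted p under 0.05, change of more than 25% of the lower level) decided which genes were called. The fit was run on simulated counts with the same dispersion for every gene and no variation shared between genes. These settings differ from the data, and the run served only to check the code. The p-values set group differences against the spread between these mice. Fold changes on this scale slightly understate those of low genes.

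The 7 genes and all gene lists were chosen with earlier results of these data known. Named besides the 7 are up to 3 called genes per list and contrast with the largest change and a mean of at least 5 CPM, genes of a list outside the table, the most alike genes (3 per gene and 10 for the mean), Trem2 and Ptprc. 1 gene of the mature neutrophil list is counted but not reported here. Alternatives were pseudocounts of 0.1 and 5, no filter, quantile, median-of-ratios and total-count scaling, other fits, edgeR 4.0.16 and voom on recovered reads, a replicate block and leaving out each library.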

Additional observations from a re-analysis of the deposited data

How the results depend on the processing

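The number of the 7 genes called by the study's rule was 7 for D7 vs D0 in WT and 7 in Trem2-/- joints under every alternative run, and 0 for Trem2-/- vs WT at D0. For Trem2-/- vs WT at D7 it was 3 when only the groups compared were fitted, where 10.4% of all genes were called, and 0 otherwise. The interaction call count ran from 0 to 1 when single libraries were left out and could not be fitted with only the groups compared. Leaving out single libraries gave Trem2-/- vs WT log2 fold changes at D0 of -0.24 to 0.52 for Ltf, -0.17 to 0.55 for Camp, -0.23 to 0.37 for Ngp and -0.081 to 0.56 for Lcn2, and at D7 of -0.56 to 0.10 for S100a8. Scaling to the total without TMM factors moved the median of all genes to -0.30 in WT and -0.31 in Trem2-/- joints and the share of called genes that were lower from 48.6% to 78.8% and from 51.3% to 72.1%; relative to that median the 7 genes had medians of -1.50 and -2.32, against -1.47 and -2.29 as reported. Among genes called between the genotypes at D7, 79.3% were lower as reported, 66.7% with quantile normalization and 65.5% with only the groups compared; at D0 the share was 63.6% as reported and ran from 55.6% (voom) to 76.6% (edgeR) over the alternatives with all mice, and from 33.8% (without WT D0 replicate 1) to 71.7% (without WT D0 replicate 2) when single libraries were left out.

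With the replicate block, 7 genes were called for D7 vs D0 in WT, 7 in Trem2-/- joints and 0 in the other contrasts. The labels share only a replicate number: deviations of same-numbered samples correlated between -0.509 and 0.406 over 24 pairs (median 0.0698), with 11 over 0.1. With 4 mice per group the intervals of the genotype differences stayed wide, and depth was not the limit for these abundant genes.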
